A study of Mus musculus with 10 samples.

Results

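The aryl hydrocarbon receptor (AHR) pathway was described here as 9 genes: the receptor gene Ahr, its partners Arnt and Arnt2, the feedback repressors Ahrr and Tiparp, and the target genes Cyp1a1, Cyp1a2, Cyp1b1 and Nqo1. They were chosen by name, and each was followed over its annotated body with 5000 bp added on each side (GRCm38, GENCODE M21), 9 of the 17290 protein-coding genes that held a peak in at least 1 library. Merging the peaks of all libraries gave 31 separate open-chromatin sites in these windows, of 85680 in the genome.

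The data were Omni-ATAC-seq peak lists, a transposase assay of open chromatin, from mouse colon organoids. WT organoids and AHR KO organoids, which were grown from Villin-Cre Ahr fl/fl mice (a floxed Ahr allele recombined by Cre under the epithelial Villin promoter) on the C57BL/6 background with wildtype littermates as controls, were compared in 2 media. WENR contains Wnt3a and holds the cells in a regenerative state, and d4 ENR is the medium 4 days after Wnt3a was withdrawn, in which the cells differentiate. There were 2 WT WENR, 3 AHR KO WENR, 3 WT d4 ENR and 2 AHR KO d4 ENR libraries, each from 50000 sorted live cells. Which mouse gave which library is not given in the sources used here, so p-values measure the spread between these libraries. The exons that the floxed allele loses are not given in those sources either, and a list of peaks is no check of the deletion.

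AHR is a ligand-activated transcription factor of the bHLH-PAS family that waits in the cytoplasm with chaperones. On binding dietary, microbial or tryptophan-derived ligands it moves to the nucleus, pairs with ARNT and binds short DNA elements with the core GCGTG, from which it induces CYP1 enzymes that clear the ligand, and the repressors AHRR and TIPARP that end the response. In the gut epithelium the pathway is known for its part in barrier defence and in detoxification.

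The libraries held 30354729 to 49126792 fragments and 33433 to 65308 peaks. In WENR, 63.0% and 66.5% of the coverage lay in peaks in WT, and 67.2% to 68.6% in AHR KO. In d4 ENR the share was 14.1%, 24.4% and 30.9% for WT, and 33.8% and 44.2% for AHR KO, so that the share of coverage in peaks moved with both medium and genotype. Every comparison that involves d4 ENR is therefore given below beside the same count for all genes or sites, and the part of library quality in it was not tested. Markers fixed for the colon epithelium had peaks in all 10 libraries (10 of 10 genes, among them Epcam, Vil1, Cdx2, Cdh1, Krt20 and Lgr5). Of 9 markers of other cells, 3 had no peak in any library, among them Cd3e of T cells and Sox10 of glia, and Ptprc, which marks leukocytes, Pecam1, Cdh5, Col1a1, Pdgfra and Acta2 had one in 8 to 10 libraries. In d4 ENR, 7 of the 10 epithelial markers and 3 of the 9 others were covered more in AHR KO than in WT, without overlap, as were 54.4% of all genes. In such bulk libraries, fewer cells with an open site and less opening per cell cannot be told apart.

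To show where the receptor could bind, the letters GCGTG (the core), TNGCGTG (the core with the flank known to favour AHR and ARNT, which is also counted as a core) and TGACNNNGC (the antioxidant response element bound by NRF2) were searched on both strands. The core was present in 45.9% of all 85680 sites, the longer form in 11.9% and the antioxidant element in 34.0%. In 300-base promoters of RefSeq genes (GRCm38.p6, 250 bases before to 50 after the start), the shares were 32.4%, 5.07% and 12.4% of 32851. The table of promoters held 8 of the 9 genes, all but Ahr. Of these promoters, Ahrr held 3 cores, and Tiparp, Arnt, Cyp1a1 and Cyp1b1 1 each, while the Arnt2, Nqo1 and Cyp1a2 windows held no such letters.

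The open sites themselves are of unequal length, so their counts are set beside those of sites of like length. Those sites were matched on length alone, not on base composition or on lying at a promoter. The site with the most extended cores was an upstream region of Cyp1a1 (Cyp1a1 site 3, chr9:57696037-57697156), whose midpoint lies at -1017 bp from the RefSeq start, in the first intron of the longest GENCODE transcript. It held 11 cores and 7 extended cores, and 0.128% and 0.0197% of the 10171 sites within 10% of its length held as many. The only site of Cyp1b1 (chr17:79713459-79716315) held 14 cores, as did the promoter site of Tiparp (Tiparp site 1, chr3:65527653-65529895), against a median of 2 in sites of like length. An intronic site of Ahrr (Ahrr site 3, chr13:74259726-74260597), in intron 3 and at the start of a shorter transcript, held 6 cores and 3 extended ones, which 0.675% and 0.0327% of sites of like length matched. The promoter site of Nqo1 (Nqo1 site 2, chr8:107402719-107403990) held no exact TGACNNNGC. It held 1 core, in its extended form, a form found in 15.7% of sites of like length. Its stretch printed below holds tgagtcggc, which departs from TGACNNNGC in 1 letter and was not counted. The upstream Nqo1 site, whose midpoint lies at -2703 bp from the start (Nqo1 site 1, chr8:107405598-107406220), held no core and 1 exact TGACNNNGC. That element was found in 24.0% of sites of like length. Nqo1 site 5 (chr8:107384546-107385345), downstream, held 1 core, in its extended form, and 2 exact TGACNNNGC. As many extended cores or more were in 8.07% of sites of like length, and as many such elements or more in 5.93%. A match is only a run of letters and says nothing of binding in these cells, and elements that depart from these letters were not searched.

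The stretches below show those letters in the sites on which the results turn, each 300 bases outside any annotated exon and read 5′ to 3′ on the strand of its gene. Capitals mark the core GCGTG or its complement CACGC, and in Nqo1 site 1 the antioxidant element. The Cyp1a1 stretch is chr9:57696287-57696586 with 5 cores, the Cyp1b1 stretch chr17:79715735-79716034 with 5 (the last 2 overlap in a palindrome), the Ahrr stretch chr13:74259816-74260115 with 5, the Tiparp stretch chr3:65529505-65529804 with 7, mostly in a simple repeat, and the Nqo1 stretches chr8:107403438-107403737 and chr8:107405808-107406107 with 1 match each.
Cyp1a1 site 3: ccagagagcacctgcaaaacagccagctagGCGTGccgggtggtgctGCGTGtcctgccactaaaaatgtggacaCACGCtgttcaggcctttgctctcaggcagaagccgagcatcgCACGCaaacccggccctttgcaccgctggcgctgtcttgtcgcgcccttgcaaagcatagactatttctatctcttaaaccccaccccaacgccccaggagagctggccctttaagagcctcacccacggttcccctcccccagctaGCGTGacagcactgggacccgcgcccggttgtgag
Cyp1b1 site 1: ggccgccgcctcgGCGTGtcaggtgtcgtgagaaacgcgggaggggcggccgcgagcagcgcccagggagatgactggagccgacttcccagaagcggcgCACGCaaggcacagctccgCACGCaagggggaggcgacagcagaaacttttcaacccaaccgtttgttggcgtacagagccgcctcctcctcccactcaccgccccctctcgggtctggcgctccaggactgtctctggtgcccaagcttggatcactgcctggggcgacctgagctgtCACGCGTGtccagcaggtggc
Ahrr site 3: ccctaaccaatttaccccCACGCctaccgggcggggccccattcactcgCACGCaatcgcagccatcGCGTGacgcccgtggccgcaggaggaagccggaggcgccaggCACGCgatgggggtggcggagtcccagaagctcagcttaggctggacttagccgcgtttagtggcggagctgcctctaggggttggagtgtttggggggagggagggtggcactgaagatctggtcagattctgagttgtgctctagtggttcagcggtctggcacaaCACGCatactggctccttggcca
Tiparp site 1: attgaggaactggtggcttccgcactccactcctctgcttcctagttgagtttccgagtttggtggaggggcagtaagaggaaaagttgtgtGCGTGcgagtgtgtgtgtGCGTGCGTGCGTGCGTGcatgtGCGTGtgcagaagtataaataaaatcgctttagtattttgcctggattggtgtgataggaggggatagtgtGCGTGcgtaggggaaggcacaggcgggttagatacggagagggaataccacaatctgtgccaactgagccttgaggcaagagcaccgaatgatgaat
Nqo1 site 2: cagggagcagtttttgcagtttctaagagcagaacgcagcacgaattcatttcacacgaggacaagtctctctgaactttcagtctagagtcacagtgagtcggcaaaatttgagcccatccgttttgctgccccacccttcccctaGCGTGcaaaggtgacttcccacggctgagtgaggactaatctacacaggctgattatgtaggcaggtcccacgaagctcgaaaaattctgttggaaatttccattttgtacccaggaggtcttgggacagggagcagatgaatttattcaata
Nqo1 site 1: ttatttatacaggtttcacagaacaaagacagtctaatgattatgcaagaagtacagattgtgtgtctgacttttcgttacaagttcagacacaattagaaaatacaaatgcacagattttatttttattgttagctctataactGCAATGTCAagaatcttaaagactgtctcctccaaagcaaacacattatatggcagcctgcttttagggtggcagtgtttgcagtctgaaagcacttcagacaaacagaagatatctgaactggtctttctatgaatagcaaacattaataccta

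The gene that was targeted, Ahr (chr12:35497974-35535038, minus strand), kept an open promoter in every library and gained peaks within its body in AHR KO. Peaks covered 2142 and 2544 bp of its window in WT WENR and 5130, 5346 and 7017 bp in AHR KO WENR. In d4 ENR they covered 1216, 1595 and 1318 bp in WT against 3541 and 3250 bp in AHR KO. AHR KO libraries thus lay above WT in both media, by 3488 bp in WENR (5831 ± 1033, SD, n = 3, against 2343 ± 284, n = 2) and 2019 bp in d4 ENR (3396 ± 206, n = 2, against 1376 ± 196, n = 3). With 2 libraries against 3 the two-sided exact permutation p cannot go below 0.2, which is the value in each medium. Over both media, with genotypes exchanged within each, the exact permutation p was 0.020, the smallest that 100 arrangements give, and 0.30 after Benjamini-Hochberg adjustment over 17290 genes. No gene passed that adjusted test in either direction (0% higher, 0% lower), and 11.9% of genes were higher and 0.0925% lower at an unadjusted p of at most 0.05. With every list shortened to the 33433 peaks of the shortest, the difference of Ahr was 433 bp in WENR, where the groups overlapped, and 964 bp in d4 ENR. With coverage as a share of all coverage in peaks, the groups overlapped in d4 ENR.

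**Figure D1:**
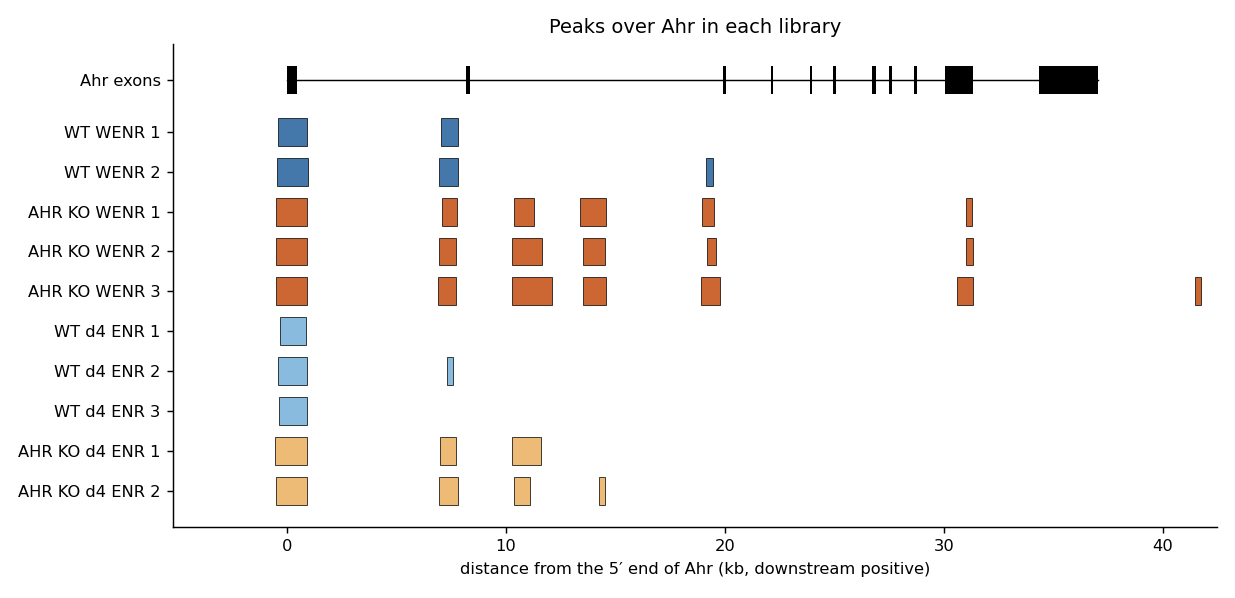
Peaks over Ahr in each library, as bars against the distance from its 5′ end in kb, with the exons of the longest transcript in black. The WT libraries hold a promoter peak and at most 2 peaks in the body, while all 5 AHR KO libraries hold further peaks in the second intron.

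The gained peaks lay in introns, in an exon and downstream of the gene. Ahr site 1, the promoter and first exon (chr12:35534094-35535580), was called in all 10 libraries. Its pileup, the mean number of fragments over the peak, was 384 and 404 in WT WENR, 300, 354 and 338 in AHR KO WENR, 64.6, 76.3 and 96.4 in WT d4 ENR and 123 and 145 in AHR KO d4 ENR. In WENR the AHR KO values were thus the lower ones, and in d4 ENR the higher ones. Of the 28205 sites called in all libraries, most were higher in AHR KO d4 ENR too. Scaled to fragments alone, 73.1% passed as higher (limma adjusted p under 0.05). With log2 pileup centred on the median of those sites, Ahr site 1 differed by -0.08 ± 0.10 (SE) in d4 ENR (limma adjusted p = 0.701). There 46% of sites had a lower difference. In WENR it differed by -0.24 ± 0.10 (limma adjusted p = 0.576). Ahr site 2 (chr12:35527249-35528121), in the first intron of the longest transcript and at the promoter of another annotated transcript, was called in 8 libraries. Ahr site 3 (chr12:35522914-35524762), in the second intron, was called in all 5 AHR KO and no WT library, a pattern shown by 1 of 31 sites of these genes and by 38 of all 85680 sites (0.0444%). Its pileup was 37.3, 52.9 and 78.0 in AHR KO WENR and 16.7 and 15.3 in AHR KO d4 ENR, with a fold enrichment over local background of 2.05 to 2.47. These were weak peaks, above 19.8% to 27.7% of the peaks of their library by significance in AHR KO WENR. In AHR KO d4 ENR they stood above only 4.61% and 5.44%. Their -log10 q there was 1.82 and 1.94, so a threshold of 5 would leave the site called in AHR KO WENR alone.

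Ahr site 4 (chr12:35520470-35521652, same intron) was called in the 3 AHR KO WENR libraries, at a pileup of 36.2 to 116, and in 1 AHR KO d4 ENR library. Ahr site 6 (chr12:35503716-35504437), within exon 10, was called in AHR KO WENR alone, at 14.5 to 25.1. Ahr site 5 (chr12:35515271-35516132), in the second intron, was also called in 1 WT WENR library, and Ahr site 7, downstream of the gene, in 1 AHR KO library only. AHR KO WENR libraries were called and WT ones not at 3 of 31 sites, all of them in Ahr, against 1.18% of all sites. The converse held for 0 of 31 sites (0.759% of all). In d4 ENR the first pattern held for 1 site, Ahr site 3 (2.84% of all), and the second for none (0.0864%).

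The local background, which the peak caller takes from the 10000 bp around a peak, was raised here too. At Ahr site 3 it was 1.56 to 3.11 times the median background of all peaks in the same AHR KO WENR library, and at Ahr site 4 1.23 to 2.72 times, but it was 0.899 and 0.963 times the median at Ahr site 3 in AHR KO d4 ENR. The stretch of Ahr site 3 at the middle of what all 5 libraries cover (chr12:35524236-35524385, minus strand) is shown as the one that only AHR KO libraries called. The site holds no core and no antioxidant element.
Ahr site 3: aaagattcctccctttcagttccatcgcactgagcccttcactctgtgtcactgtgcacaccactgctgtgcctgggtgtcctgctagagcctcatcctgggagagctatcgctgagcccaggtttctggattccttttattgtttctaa

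**Figure D2:**
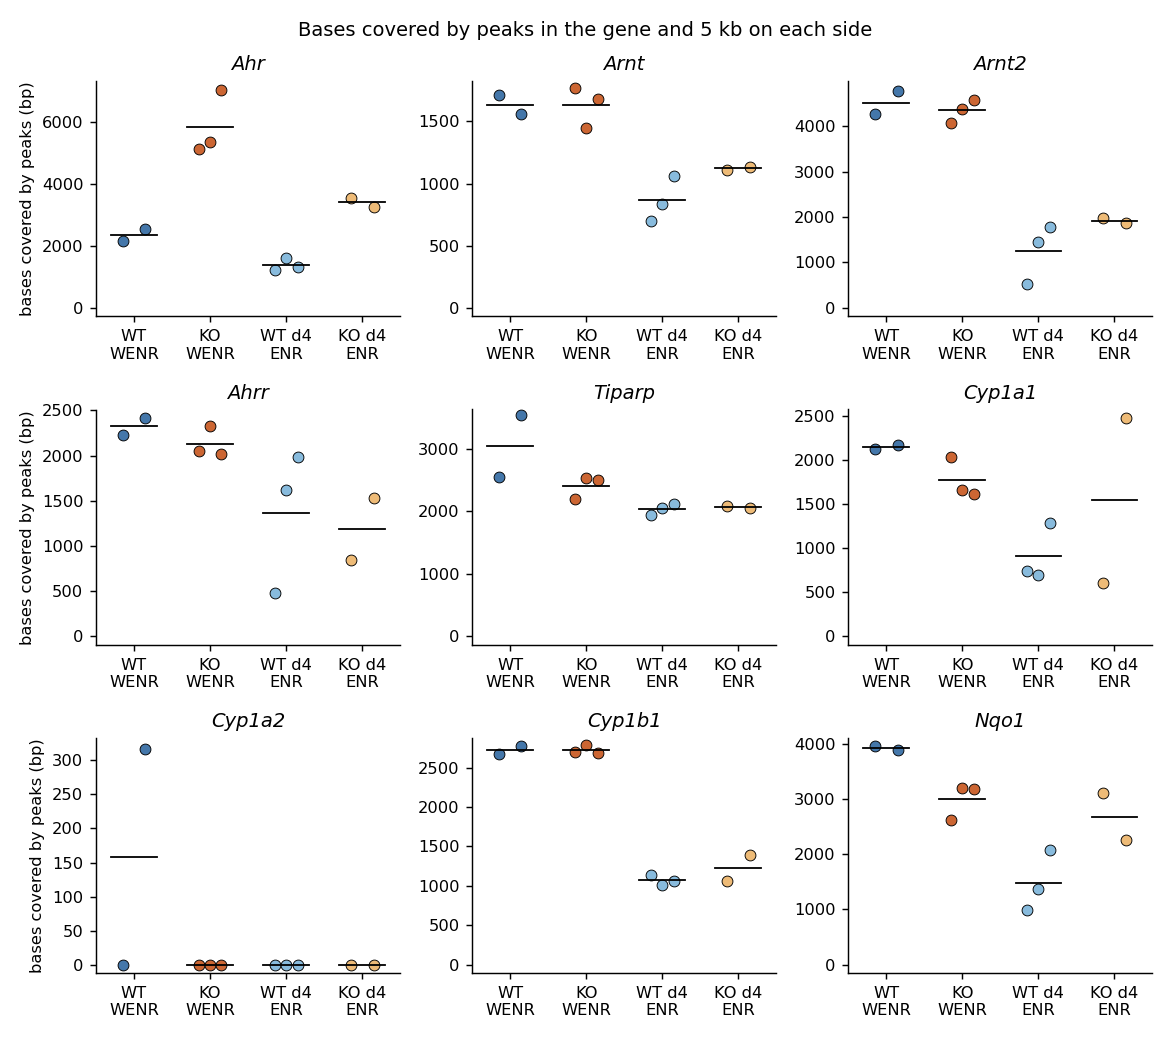
Bases covered by peaks (bp) in the window of each gene. Points are libraries and lines group means (n = 2, 3, 3 and 2 from left to right). Ahr is the gene whose AHR KO libraries lie above WT in both media, and Nqo1 lies below WT in WENR and above it in d4 ENR.

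Genes whose covered length follows that of Ahr over the 10 libraries were looked up by Pearson's r of log2(covered bases + 100), as a description. The 5 most alike were Blzf1 (r = 0.964), Rpl13 (0.956), Eml1 (0.956), Pak3 (0.952) and Odc1 (0.951). Pak3, on the X chromosome, had 430 and 428 bp in WT WENR and 2925, 2998 and 4155 bp in AHR KO WENR. Eml1 (chr12:108370957-108539617) and Odc1 (chr12:17544794-17551505) lie on chromosome 12, as Ahr does, but far from it. The share of all genes on that chromosome was not taken, nor was it tested how common such r values are.

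The partners of the receptor were described next. Arnt, the obligate dimer partner, had a peak at its promoter (Arnt site 1, chr3:95433736-95435079) in all 10 libraries. The pileup there was 263 and 281 in WT WENR and 221, 303 and 300 in AHR KO WENR, and the groups overlapped. In d4 ENR it was 56.0, 72.7 and 93.4 in WT and 115 and 139 in AHR KO, with no overlap. Two-group tests on sites were made by limma on log2 pileup centred on the median of the 28205 sites called in all libraries, and on that scale Arnt site 1 differed by 0.02 ± 0.11 (SE) in WENR and by -0.05 ± 0.11 in d4 ENR.

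Arnt2, the paralog of Arnt best known from neurons, had no peak at its annotated start in most libraries. Arnt2 site 1 there (chr7:84409316-84410002) was called in 4 of 10 libraries. The Arnt2 sites called more often lay in the body. Arnt2 site 3 (chr7:84272031-84273075, intron 12) was called in all 10, with a pileup of 45.4 and 48.1 in WT WENR against 39.1, 42.1 and 45.9 in AHR KO WENR. Arnt2 site 5 (chr7:84245814-84248641), at the last exon, had a pileup of 43.5 and 59.3 in WT WENR and 59.8, 76.7 and 98.0 in AHR KO WENR, so the AHR KO libraries lay above, by little at the nearest pair. Covered bases of Arnt2 fell from 4261 and 4784 bp in WT WENR to 521, 1442 and 1791 bp in WT d4 ENR, and from 4079, 4388 and 4581 to 1970 and 1869 bp in AHR KO.

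The targets were compared first in WENR, where the genotypes lay closest in the share of coverage in peaks. Cyp1b1 encodes a cytochrome that oxidises AHR ligands and steroids. Its single site, which spans the promoter and first exon, had a pileup of 200 and 209 in WT WENR and 142, 151 and 151 in AHR KO WENR, and the groups did not overlap. Covered bases did not part (2674 and 2771 against 2700, 2788 and 2692 bp). Nqo1 encodes a quinone reductase that is induced by both AHR and NRF2. Nqo1 site 2, the promoter, had a pileup of 175 and 154 in WT and 120, 98.0 and 64.8 in AHR KO. Nqo1 site 1, upstream, had 99.4 and 75.8 in WT and 55.7, 44.0 and 33.3 in AHR KO. Every AHR KO library was thus below both WT libraries at Nqo1 sites 1 and 2. Nqo1 site 5, downstream of the gene, went the other way, at 21.8 and 19.9 in WT and 24.4, 28.1 and 24.4 in AHR KO. The share of all sites whose pileups part between genotypes in WENR was not taken.

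Ahrr encodes the repressor that competes with AHR for ARNT. Ahrr site 3, the intronic site with 6 cores, had a pileup of 43.4 and 44.2 in WT WENR and 27.6, 31.4 and 24.9 in AHR KO WENR. Its promoter site (Ahrr site 1, chr13:74291963-74292646) overlapped between genotypes, at 30.3 and 30.6 in WT and 27.8, 26.2 and 30.9 in AHR KO. Ahrr site 4 lies beyond the 3′ end of the gene and holds the start of Exoc3, so it may not belong to Ahrr. It was called in all 10 libraries and overlapped between genotypes in WENR. Cyp1a1, the classical AHR target, was 33.5 and 38.3 in WT and 30.5, 28.5 and 26.7 in AHR KO at site 3, the core-rich upstream site, and the groups overlapped once pileup was scaled to fragments (0.707 and 0.800 against 0.732, 0.631 and 0.543). Cyp1a1 site 4, downstream at the start of Edc3, was 88.1 and 83.0 against 90.6, 67.3 and 96.8.

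**Figure D3:**
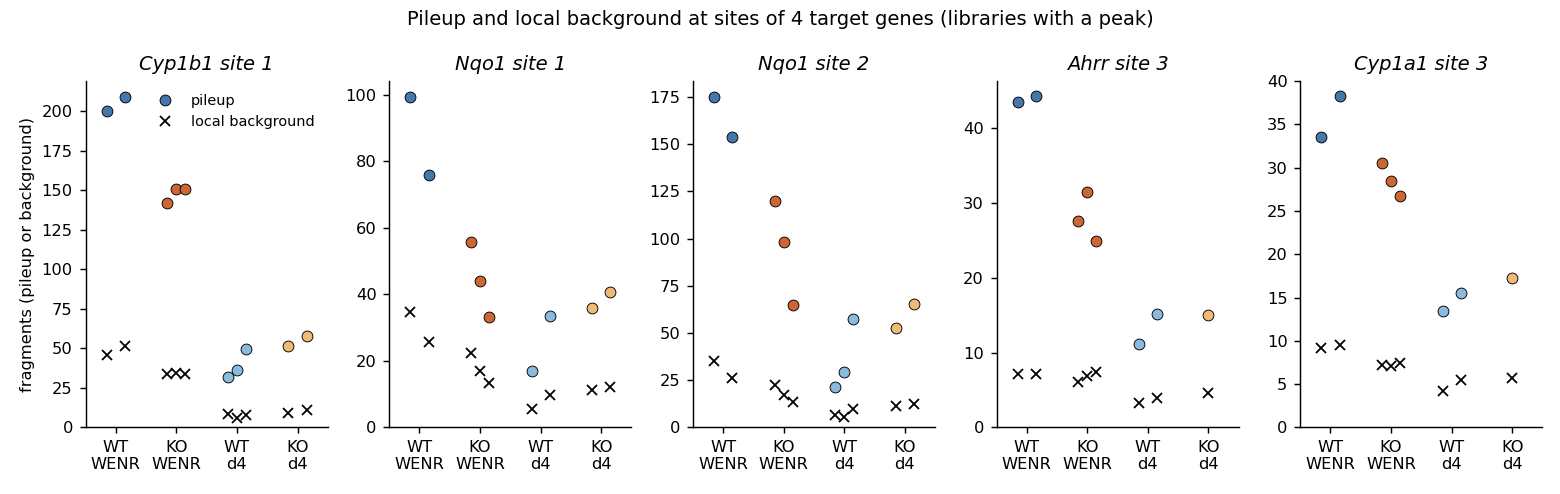
Pileup (coloured circles) and local background (crosses), both in fragments, at 5 sites of target genes by group. Each point is a library with a peak there, and libraries without one are not drawn. In WENR the AHR KO pileups, not scaled for depth, lie below the WT ones in all 5 panels, and the background lies lower too in 4 of them. The exception is Ahrr site 3, where it stood near the lowest at the sites of these genes. The panels are a choice of sites. In WENR the pileups of the genotypes overlapped at Ahrr sites 1 and 4, Tiparp site 1 and Cyp1a1 site 4. Those of AHR KO lay above WT at Nqo1 site 5.

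In the fit planned for these comparisons, which used all 10 libraries, 0 of 8 sites of these genes passed an adjusted p of 0.05 for AHR KO against WT in WENR (limma; 0.131% of 28205 sites passed). At an unadjusted p under 0.05 there were 3, Ahr site 1, Cyp1b1 site 1 and Nqo1 site 2, and 7.31% of all sites. Cyp1b1 site 1 was lower by a log2 difference of -0.45 ± 0.12 (limma adjusted p = 0.216) and Nqo1 site 2 by -0.83 ± 0.26 (limma adjusted p = 0.35). Because that fit left out sites missing in some d4 ENR library, a fit of the 5 WENR libraries alone over 52254 sites was added after the data were seen. It took in 18 sites of these genes, of which 1 passed and 6 had an unadjusted p under 0.05 (0.457% of all sites passed, 14.4% unadjusted).

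The site that passed was Cyp1b1 site 1, at 0.721-fold in AHR KO (log2 difference -0.47 ± 0.09, limma adjusted p = 0.0496). It missed the threshold without WT WENR replicate 1 (limma adjusted p = 0.526), without WT WENR replicate 2 (0.227) or without AHR KO WENR replicate 2 (0.142). Larger differences that did not pass were those of Nqo1 site 1 (-1.01 ± 0.25, 0.498-fold, limma adjusted p = 0.0957), Nqo1 site 2 (-0.85 ± 0.24, 0.553-fold, 0.13) and Ahrr site 3 (-0.66 ± 0.18, 0.634-fold, 0.118). Without AHR KO WENR replicate 1, Nqo1 sites 1 and 2 and Arnt2 site 5 passed too (4 sites in all). Without AHR KO WENR replicate 3, Nqo1 sites 1 and 2 passed too (3 in all). Of all 52254 sites, 0.136%, 0.325%, 0.984% and 3.08% had a lower log2 difference than Nqo1 site 1, Nqo1 site 2, Ahrr site 3 and Cyp1b1 site 1. Cyp1a1 site 3 was at -0.33 ± 0.17 (limma adjusted p = 0.411) and Tiparp site 1 at -0.05 ± 0.09. In the other direction stood Arnt2 site 5, at 0.59 ± 0.16 (1.5-fold, limma adjusted p = 0.118). The median of the 18 sites was -0.13 and that of all sites -0.01, with 14 of 18 sites and 52.7% of all sites below 0.

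**Figure D4:**
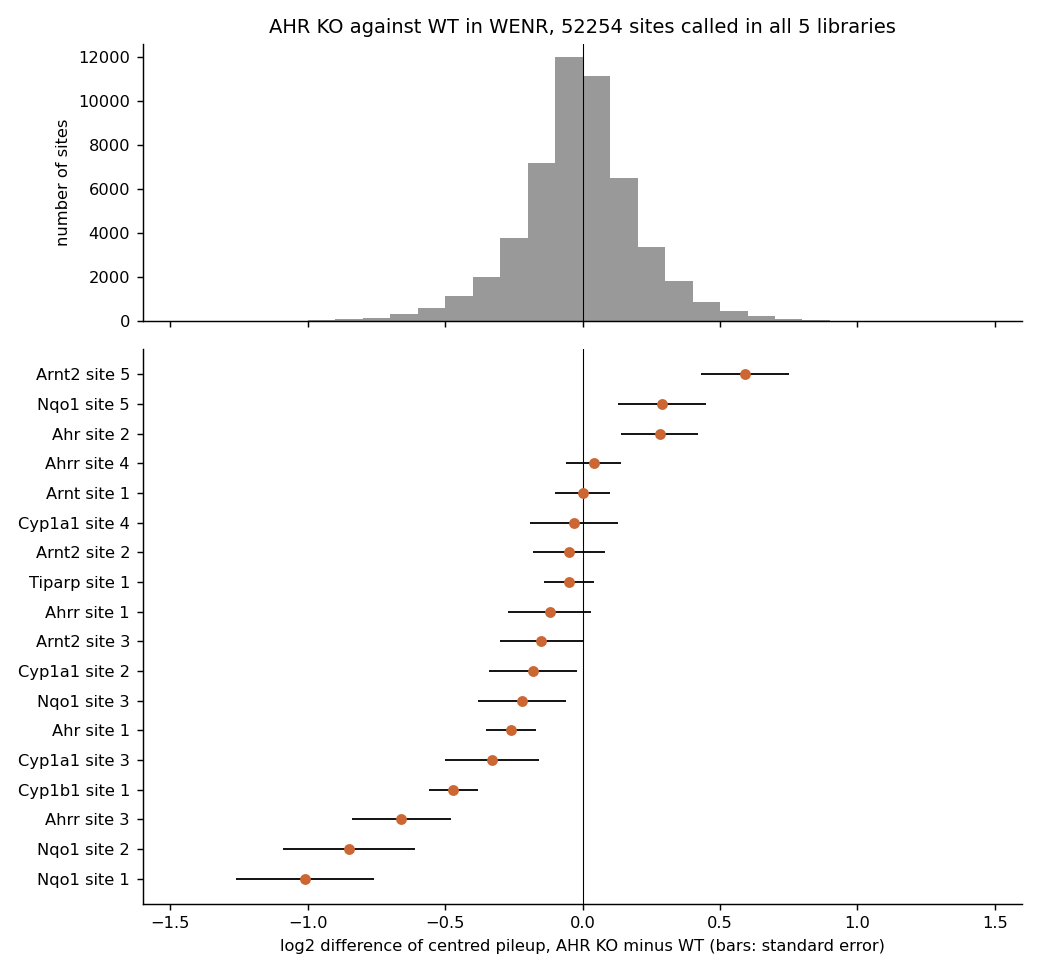
Top, histogram of the log2 difference of centred pileup, AHR KO minus WT, over 52254 sites called in all 5 WENR libraries. Bottom, the same difference with its SE at the 18 sites of the pathway genes, the lowest being Nqo1 site 1 at -1.01 and the highest Arnt2 site 5 at 0.59.

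These differences are in pileup. Fold enrichment divides pileup by the local background, and that background is counted in the same library over 10000 bp that hold the peak itself and its neighbours. In WENR the background at Cyp1b1 site 1 was 46.1 and 51.3 in WT and 33.8 to 34.6 in AHR KO, and at Nqo1 site 2 26.0 and 35.3 in WT and 13.6 to 22.7 in AHR KO. Their fold enrichments therefore hardly differed (log2 difference 0.02 ± 0.09 and -0.08 ± 0.09). At Ahrr site 3 the background was 7.14 and 7.18 in WT and 6.03 to 7.42 in AHR KO, and fold enrichment was lower as well, 6.05 and 6.19 in WT against 4.58, 4.57 and 3.36 in AHR KO (-0.59 ± 0.13, limma adjusted p = 0.26). That background was 0.605 to 0.621 times the library median, close to other weak sites (0.597 to 0.605 at Ahr site 6 in AHR KO). Fold enrichment there is thus nearly pileup over a constant of the library, and not a separate check. At Ahr site 2 the measures went opposite ways, with pileup at 0.28 ± 0.14 and fold enrichment at -0.62 ± 0.15. With fold enrichment no site of these genes passed.

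By covered bases, 1 of 9 genes lay above WT in AHR KO in WENR without overlap, Ahr, as did 11.8% of all genes, and 3 lay below, Tiparp, Cyp1a1 and Nqo1, as did 11.1%. Nqo1 was covered over 3958 and 3885 bp in WT WENR and 2622, 3197 and 3179 bp in AHR KO WENR. Nqo1 site 3 (chr8:107388382-107390197, at the last exon) was covered over 1816 and 1652 bp in WT but 568 to 624 bp in AHR KO, at a mean pileup of 29.0 and 25.2. Covered bases hardly differed at Nqo1 site 1 (means of 518 and 516 bp) and Nqo1 site 2 (1125 and 1100 bp). The lower cover of Nqo1 in WENR thus came from the width of the site 3 peak. Tiparp encodes an ADP-ribosyltransferase that inactivates AHR, and its window had 2560 and 3555 bp in WT against 2200, 2531 and 2501 bp in AHR KO. At its promoter the pileup was 397 and 384 in WT and 315, 390 and 443 in AHR KO, which overlap.

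Cyp1a2, a liver enzyme whose gene lies next to Cyp1a1, was called least often. Its window held a single peak (chr9:57687994-57688310) in 1 of 10 libraries, WT WENR replicate 2, at a pileup of 17.1 and a fold enrichment of 2.48, and that peak lies at the GENCODE start of Cyp1a1, whose window overlaps it.

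In d4 ENR, AHR KO libraries lay above WT for 4 of 9 genes, Ahr, Arnt, Arnt2 and Nqo1, as they did for 54.4% of all genes, and below for none (0.237%). The count of members is thus near that of all genes. With lists of equal length Ahr, Arnt and Nqo1 stayed above WT, as did 52.2% of all genes. Arnt2 then turned, to 496 and 515 bp in AHR KO against 521, 1442 and 641 bp in WT. Such an order held for 0.572% of all genes. Nqo1 had 982, 1378 and 2079 bp in WT against 3102 and 2263 bp in AHR KO. Cyp1a1 had 740, 699 and 1282 bp in WT against 606 and 2482 bp in AHR KO, so that 1 AHR KO library was the lowest and the other the highest. Its core-rich site 3 was called in 2 of 3 WT and 1 of 2 AHR KO libraries. Ahrr had 484, 1616 and 1983 bp in WT against 841 and 1526 bp in AHR KO. The 484 and 841 bp all lay at Ahrr site 4, the start of Exoc3, with 0 bp in the gene body. The 606 bp of Cyp1a1 likewise lay at Cyp1a1 site 4, the start of Edc3, with 0 bp in its body. Ahrr site 2 (chr13:74282329-74282823, intron 2) was called in 2 WT d4 ENR libraries and nowhere else, at a pileup of 9.45 and 12.5.

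After centring, 0 of 8 sites passed for AHR KO against WT in d4 ENR (limma; 1.05% of sites passed), and 2 had an unadjusted p under 0.05 (20.6% of sites). These were Tiparp site 1, at 0.35 ± 0.11 (1.27-fold, limma adjusted p = 0.105), and Cyp1b1 site 1, at -0.35 ± 0.12 (0.783-fold, 0.112). The pileup of Tiparp site 1 was 64.3, 65.2 and 91.3 in WT and 158 and 176 in AHR KO. That of Cyp1b1 site 1 was 32.1, 36.3 and 49.4 in WT and 51.6 and 58.0 in AHR KO, higher before centring and lower after it, since the median site differed by more. Without WT d4 ENR replicate 1, the library with the lowest share of coverage in peaks, Tiparp site 1 passed (0.41, limma adjusted p = 0.020).

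From WENR to d4 ENR most of the genes lost covered bases, as most genes did. In WT, 8 of 9 genes, all but Cyp1a2, had fewer covered bases in every d4 ENR library than in every WENR library, as 80.6% of all genes did, and none had more (0.451%). In AHR KO the fall held for 6 genes, Ahr, Arnt, Arnt2, Ahrr, Tiparp and Cyp1b1, and for 55.3% of genes, and none rose (5.84%). With media exchanged within genotypes, these 6 had an exact permutation p of 0.020 and 0.039 after adjustment over all genes (51.3% of genes were called lower). Over the gene body alone, which leaves out the start of Exoc3, the Ahrr libraries of the 2 media overlapped in WT. They had 958 and 1130 bp in WENR against 0, 761 and 1059 bp in d4 ENR. Cyp1b1 went from 2674 and 2771 bp to 1135, 1016 and 1057 bp in WT, and from 2700, 2788 and 2692 bp to 1057 and 1385 bp in AHR KO. Nqo1 missed the threshold (difference -1379 bp, exact permutation p = 0.040, adjusted 0.066), as did Cyp1a1 (-736 bp, 0.10, adjusted 0.14). With lists shortened to equal length, or with coverage taken as a share of all coverage in peaks, 0 of these genes passed. With 1 library left out none passed either, as fewer arrangements are then possible.

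Relative to the median site, 2 of 8 sites fell in WT d4 ENR (limma; 39.6% of sites passed, 25.9% higher and 13.7% lower). They were Tiparp site 1 (-0.35 ± 0.11, 0.784-fold, limma adjusted p = 0.0205) and Cyp1b1 site 1 (-0.33 ± 0.12, 0.797-fold, 0.0346). Ahr site 1 just missed (-0.26 ± 0.10, 0.0505). In fold enrichment the direction turned, to 0.12 ± 0.09 for Tiparp site 1 and 0.49 ± 0.10 for Cyp1b1 site 1. Neither site passed without WT WENR replicate 1, WT WENR replicate 2 or WT d4 ENR replicate 2, and Cyp1b1 site 1 also missed without AHR KO WENR replicate 2 (limma adjusted p = 0.0557) and with the replicate number as a block (0.0696). In AHR KO 0 of 8 sites passed (limma; 29.7% of sites), and 2 had an unadjusted p under 0.05, Arnt2 site 3 (0.44 ± 0.16) and Nqo1 site 2 (0.57 ± 0.26). For the difference of the genotype effects between media 0 of 8 passed, and 0% of all sites did, while 2 sites of the genes and 13.5% of all had an unadjusted p under 0.05.

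**Figure D5:**
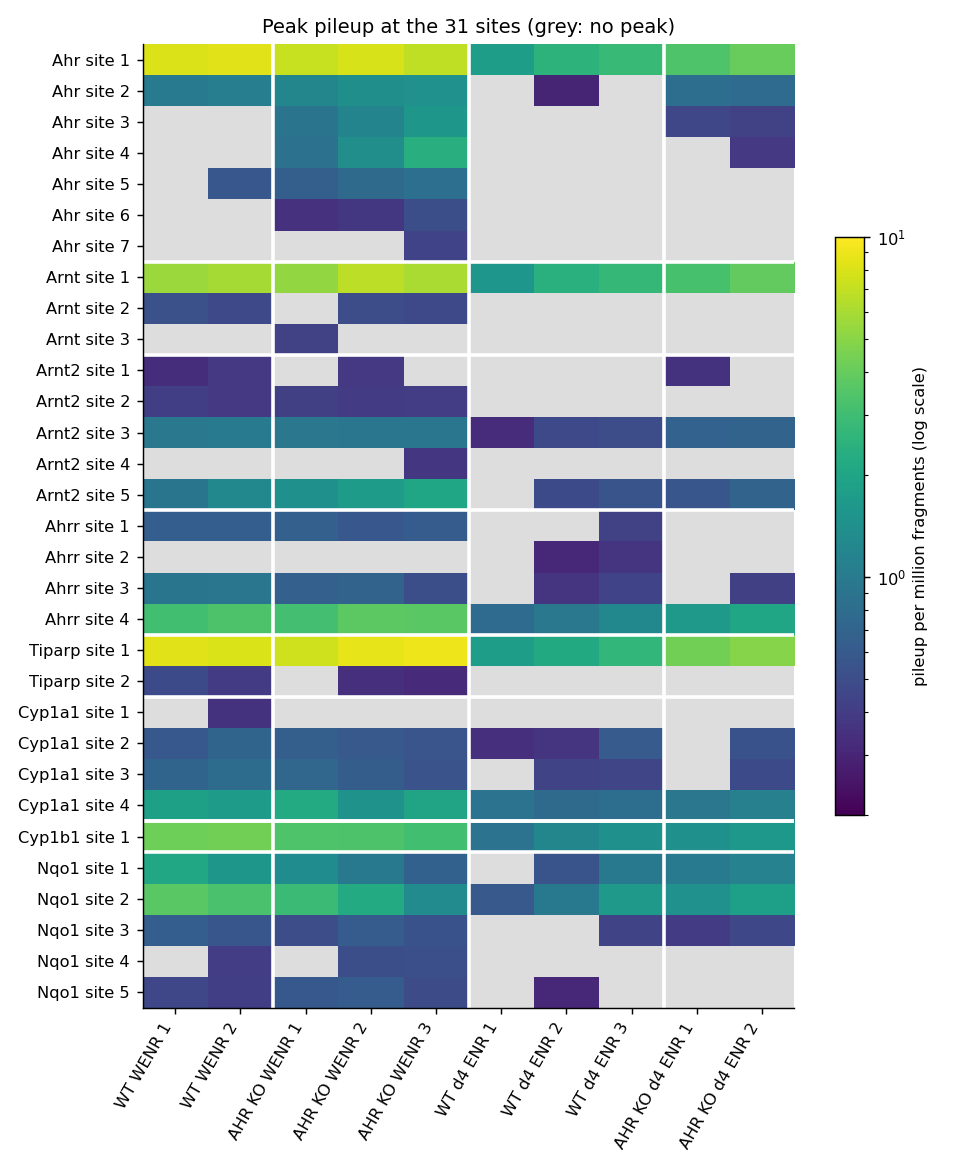
Pileup scaled to the fragments of each library (log colour scale) at the 31 sites, in rows, and 10 libraries, in columns, with grey where no peak was called. The 3 strongest rows, the promoters of Ahr, Tiparp and Arnt, are bright in WENR and dimmer in d4 ENR, while Ahr sites 3 and 4, in the second intron, are filled in AHR KO only.

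Across the 31 sites, 8 were called in all 10 libraries (25.8%, and 32.9% of all sites), 18 in all 5 WENR libraries, and 10 in WENR alone (32.3%, and 22.6% of all sites). The 8 were the promoters of Ahr, Arnt, Tiparp, Cyp1b1 and Nqo1, Arnt2 site 3, and the sites at the starts of Exoc3 and Edc3. The promoter peaks of Ahr stood above 92.3% to 98.7% of the peaks of their library by significance, and those of Tiparp above 87.8% to 97.3%. For the upstream site of Cyp1a1 the range was 16.1% to 40.3%.

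The wider pathway was followed as 39 further genes in 5 lists, all of which held a peak. In WENR 4 were covered more in AHR KO (10.3%) and 7 less (17.9%). In d4 ENR 22 were covered more (56.4%) and none less. Over all genes these shares were 11.8% and 11.1% in WENR, and 54.4% and 0.237% in d4 ENR. From WENR to d4 ENR, 33 were covered less in WT and 31 in AHR KO, and 29 passed the adjusted exact test over both genotypes, against 80.6%, 55.3% and 51.3% of all genes. None passed for genotype. Genes named below are those of each list that parted in d4 ENR with the longest or the shortest cover. Of the AHR chaperones and degradation list, 3 of 5 were above WT in d4 ENR, among them Ptges3, a co-chaperone of HSP90 (1592 to 1619 bp in WT against 1723 and 1694 bp in AHR KO). Of the bHLH-PAS relatives 9 of 12 were, from the clock gene Npas2 (8635, 7482 and 8941 bp, and 13354 and 13127 bp) to Npas1 (815, 1396 and 1719 bp, and 1737 and 1958 bp). Of the coregulators 4 of 9 were, among them Smarca4, a chromatin remodelling ATPase (1090, 1695 and 1840 bp, and 1944 and 2089 bp).

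Of the xenobiotic battery and NRF2 genes, 3 of 7 were below WT in WENR (11.1% of all genes) and 4 above in d4 ENR (54.4%). The 3 that did both, the NRF2 gene Nfe2l2 and the glucuronosyltransferases Ugt1a6a and Ugt1a6b, were picked out after their values were seen, and the latter pair overlap in one locus and share peaks. Genes of other lists did both as well, among them Ido2, so the pattern was not particular to this list. The share of all genes that did both was not taken. Ugt1a6b had 5436, 7305 and 7804 bp in WT d4 ENR and 9829 and 11546 bp in AHR KO d4 ENR. The aldehyde dehydrogenase Aldh3a1, an AHR target, had no peak in any WT d4 ENR library and 360 and 616 bp in AHR KO. Of the enzymes that make or clear AHR ligands from tryptophan, 2 of 6 were above WT in d4 ENR, Ido2 (2925, 2732 and 3205 bp, and 4277 and 4479 bp) and Kmo (1035, 1075 and 1523 bp, and 1586 and 1706 bp).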

How the data were processed

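The deposited files were 10 lists of Omni-ATAC-seq broad peaks, 1 per library. Per the study's methods, the authors aligned reads with BWA to GRCm38 in nf-core/atacseq 1.2.1. Per the file headers, the peaks of every library were called on its own (MACS 2.2.7.1), with no control, a broad q of 0.1 and a narrow q of 0.05. In each list the authors deposited the pileup (signal, the mean fragment coverage of a peak, not scaled for depth), the fold enrichment over a background counted around the peak within 10000 bp, and -log10 p and -log10 q. Read counts per peak were not used here, so a count model such as the one in the study's methods was not fitted.

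Groups came from the sample labels. The members and lists were chosen with earlier results of these data known. Peaks of all libraries overlapping by 1 bp or more were merged into sites. The bases covered by peaks were summed over each gene body with 5000 bp on each side (GRCm38, GENCODE M21) and compared by two-sided exact permutation tests (10 arrangements within a medium, 100 over both media or both genotypes) with Benjamini-Hochberg adjustment over 17290 genes. Pileup at sites called in all libraries was compared as log2 values centred on the library median with limma 3.58.1 (R 4.3.3), at an adjusted p of 0.05. Windows were computed in Python 3.11.15 with scipy 1.17.1, numpy 2.4.6 and pandas 2.3.3, and drawn with matplotlib 3.10.9. The exact test and the window sums were tested on simulated data.

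A site was called a promoter when it lay within 1000 bp before to 100 bp after any annotated start. The text names all 9 genes with their sites, of each pathway list the genes that parted between genotypes in d4 ENR with the longest and shortest cover, and the 5 genes most like Ahr, except for some genes that are not reported here. The libraries held 30354729 to 49126792 fragments, and a site without a peak in a list is one below the caller's threshold at that depth, not one shown to be closed. Alternatives were other windows, thresholds and measures, lists of equal length, a replicate block and each library left out. The fits of a single medium were added after the data were seen.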

Additional observations from a re-analysis of the deposited data

Results flagged for a closer look

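Nqo1 was picked out because its genotype difference was not the same in the 2 media. Covered bases, AHR KO minus WT, differed by 2125 bp between d4 ENR and WENR, since every AHR KO library lay below WT in WENR and above it in d4 ENR (exact permutation p = 0.020, 0.33 after Benjamini-Hochberg adjustment over all genes). The groups overlapped in WENR with lists of equal length (-312 bp) and in d4 ENR with coverage as a share of all coverage in peaks. At Nqo1 site 2, the promoter, whose covered bases hardly differed in WENR, the same difference in log2 pileup was 0.80 ± 0.37 (limma adjusted p = 0.353). At Tiparp site 1 it was 0.37 ± 0.16 (limma adjusted p = 0.318). None of these passed the adjusted threshold, and 13.5% of all sites had an unadjusted p under 0.05 in this test. Over all genes AHR KO was covered more, by a median of 218 bp (88.3% of genes), and the share of coverage in peaks was higher in AHR KO in both media, by more in d4 ENR than in WENR. Its part in these differences was not tested.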

How the results depend on the processing

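The difference of Ahr over both media stayed above 0 under each alternative run (2457 to 2929 bp with 1 library left out), but fell to 699 bp with lists of equal length (exact permutation p = 0.060) and lost its p of 0.020 as a share of coverage in peaks (exact permutation p = 0.14), and the fall of Ahr, Ahrr, Arnt2 and Cyp1b1 from WENR to d4 ENR kept its direction. The cause of the changes below was not tested unless it is named. With lists of equal length, 2 genes (Arnt2 and Tiparp) were covered more in AHR KO in WENR, 5 were covered less in d4 ENR in WT, 0 passed for medium and 1 site passed for medium in AHR KO. The genotype difference then turned for Tiparp (39.6 bp) and Cyp1a1 (-49.2 bp), and the medium difference for Cyp1a1 (126 bp) and Nqo1 (55.2 bp). With a -log10 q of at least 5 the genotype difference turned for Ahrr (27.4 bp), Cyp1a1 (-123 bp) and Nqo1 (-134 bp), over the gene body alone for Cyp1b1 (-28.3 bp) and Nqo1 (-55.6 bp), and with 20000 bp on each side for Cyp1b1 (-276 bp). Sites called in all libraries numbered 14 in that wider window, and 4 where peaks had to cover 50% of a site.

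With coverage per 1000000 fragments 2 genes were higher in AHR KO in WENR, and the genotype difference turned for Ahrr (482), Tiparp (2816), Cyp1b1 (-1062) and Nqo1 (-564). With coverage per 1000000 of that in peaks, 0 genes were higher in AHR KO in d4 ENR and 2 in WENR, 2 fell in WT and 3 in AHR KO, and 0 passed for medium. The genotype difference turned for Arnt (-0.220), Tiparp (0.193), Cyp1a1 (-2.30), Cyp1b1 (-14.5) and Nqo1 (-6.93), and the medium difference for Arnt (2.99), Tiparp (4.58), Cyp1a1 (2.54) and Nqo1 (1.73).

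Deviations of same-numbered libraries correlated at -0.04 to 0.16, so the numbers were not read as pairs. With the replicate block 2 genes were higher in AHR KO in WENR, the Ahrr difference was 1 bp, 0 genes passed for medium (16 sign flips cannot go below a p of 0.125) and 1 site, Tiparp site 1, passed for medium in WT. Over all sites, the block moved those passing for genotype from 37 to 19 in WENR and from 296 to 484 in d4 ENR.

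Among sites, without centring 5 passed for genotype in d4 ENR (5 also with d4 ENR alone), 8 and 6 for medium in WT and AHR KO, 2 for the difference between media, and 0 in WENR alone, where Tiparp site 1 (0.03), Arnt2 site 2 (0.03) and Cyp1a1 site 4 (0.05) turned. With fold enrichment 4 and 1 passed for medium and 0 in WENR alone, where Ahr site 2 (-0.62), Ahrr site 4 (-0.04), Cyp1b1 site 1 (0.02), Cyp1a1 site 2 (0.19) and Cyp1a1 site 3 (0.01) turned. In WT the medium difference turned for Cyp1b1 site 1 (0.49) and Tiparp site 1 (0.12). With summed coverage 1 and 1 passed for medium and 0 in WENR alone, where Arnt2 site 3 (0.15), Arnt2 site 2 (0.05), Cyp1a1 site 2 (0.02) and Cyp1a1 site 4 (0.07) turned, as did Tiparp site 1 for medium in WT (0.07).

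With 1 library left out, 0 to 0 genes passed for medium, as too few arrangements are left, 1 to 2 were higher in AHR KO in WENR, and 3 to 5 sites were called in 1 genotype only. Sites passing numbered 0 to 1 for genotype in d4 ENR, 0 to 3 and 0 to 1 for medium in WT and AHR KO, and 0 to 4 in WENR alone. The genotype difference turned without AHR KO d4 ENR replicate 1 for Nqo1 (-69.4 bp, up to 350 bp) and without AHR KO d4 ENR replicate 2 for Cyp1a1 (-338 bp, up to 600 bp) and Cyp1b1 (-4.08 bp, up to 160 bp). In WENR alone the ranges crossed 0 for Ahrr site 4 (-0.01 to 0.11), Tiparp site 1 (-0.13 to 0.03, and 0.01), Arnt2 site 2 (-0.16 to 0.07) and Cyp1a1 site 4 (-0.16 to 0.12, and 0.06).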
